A study of Rattus norvegicus with 40 samples.

Results

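Oxidative phosphorylation is the process by which mitochondria make most of a cell's ATP. Complexes I and II pass electrons from NADH and succinate to complex III, complex IV (cytochrome c oxidase) hands them to oxygen, and complex V (ATP synthase) uses the proton gradient built on the way. Most subunits are nuclear genes used in nearly every cell, but several subunits of cytochrome c oxidase exist in a widespread form and in a form found mainly in heart and skeletal muscle. The members described here are all probe sets of the array whose only gene symbol begins with Nduf, Uqcr or Atp5, with Sdh and a letter from a to d, or with Cox and a number from 4 to 8. They were chosen by name alone. This gave 101 of the 8740 probe sets that are not controls, for 55 of 4736 genes. Complex I had 49 probe sets (27 genes), complex II 2 (2 genes), complex III 6 (3 genes), complex IV 27 (13 genes) and complex V 17 (10 genes). The letters of the rule also take in genes that are no subunits, namely the assembly factors Sdhaf2 and Ndufaf3, the ATP synthase inhibitor Atp5if1 and the pseudogene Cox6c-ps1. A further 6 probe sets that carry such a symbol beside another were not counted.

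The rats were male Wistar-Kyoto animals aged 3 months. Each of the 40 arrays measured RNA of the pooled common carotid arteries of 3 of them. In the operated rats a balloon catheter was drawn through the left common carotid artery, and its outer side was then covered with plain pluronic gel or with gel that held tPA, tissue-type plasminogen activator, at 20 nmol/kg. This is the protease that turns plasminogen into plasmin. The uninjured right artery of the operated rats was also taken. The 11 groups were left gel, left tPA, right gel and right tPA arteries at day 1 and at day 4 (3 arrays each), left arteries of sham-operated rats at day 1 (4 arrays) and day 4 (6 arrays), and left arteries of intact rats (6 arrays). No gel or tPA is named for the sham and intact rats, so a difference from sham holds injury and gel together. A vessel is a mixture of cells, and fewer cells of a type cannot be told apart from less RNA per cell. The labels do not say whether arrays of a group came from separate operations, and p-values measure the spread between these arrays.

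The values are deposited intensities on a linear scale, brought by the authors to a common mean. Values below 23.3 were raised to it before log2 was taken, and a probe set was called where its adjusted p in limma was under 0.05. Of the 101 members, 90 (54 genes) passed the filter on low values, and the 11 left out included the only probe set of Ndufs1. None of the 9 tested smooth muscle markers was at the floor on all arrays of a group. The same held for the tested skeletal muscle, adipocyte, macrophage and endothelial markers. All had already passed the filter on low values, so this does not show which cells were present. The summed intensity of the 9 smooth muscle markers ran from 16178.3 to 47753.6 over the arrays. Each of the 12 tPA arrays lay nearest to an array of another group over all tested probe sets, against 6 of the 28 other arrays. Replicate 2 of left tPA day 1, replicate 1 of left tPA day 4, replicate 2 of right tPA day 1 and replicate 1 of right tPA day 4 were left out together as an alternative, because an earlier analysis of these data found them apart from their groups. By mean SD of log2 differences, the day 4 arrays among them lay farthest from their groups. Replicate 2 of left tPA day 1 (1.18) lay no farther out than replicate 1 (1.19). Replicate 2 of right tPA day 1 (0.987) lay little farther out than replicate 1 (0.959). In replicate 3 of right gel day 1 only 6.57% of values lay at the floor, where other arrays had at least 15.6%. Replicates 1 and 3 of left gel day 1 were closer to each other (SD of log2 differences 0.45) than the typical pair of a group (median 0.838 over 60 pairs), and so were sham day 1 replicates 1 and 2 (0.489) and 3 and 4 (0.532). With each of these 3 pairs averaged to 1 array, no member was called in any comparison that uses a day 1 left gel or sham group, and over all probe sets 1 of 5827 passed for left gel against sham.

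The group levels of the 5 complexes lay close together. Taking for each array the median of its centred log2 intensities, the mean of a group lay between -0.25 and 0.28 (log2) for every complex in all 11 groups. For the 90 members together the means ran from -0.11 ± 0.33 (SD, n = 3) in left tPA day 1 to 0.22 ± 0.20 (SD, n = 3) in right tPA day 4. The pooled SD between arrays of a group was 0.159 for the member median, less than the distance between the lowest and the highest group mean. That distance is taken between the extremes of 11 means and was not tested, so it does not show that groups differ. Left tPA day 1 had the largest SD of the 11 groups in each complex except complex II. Its 3 arrays read -0.66, -0.28 and 0.33 for complex I and -0.31, -0.36 and 0.86 for complex III.

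**Figure D1:**
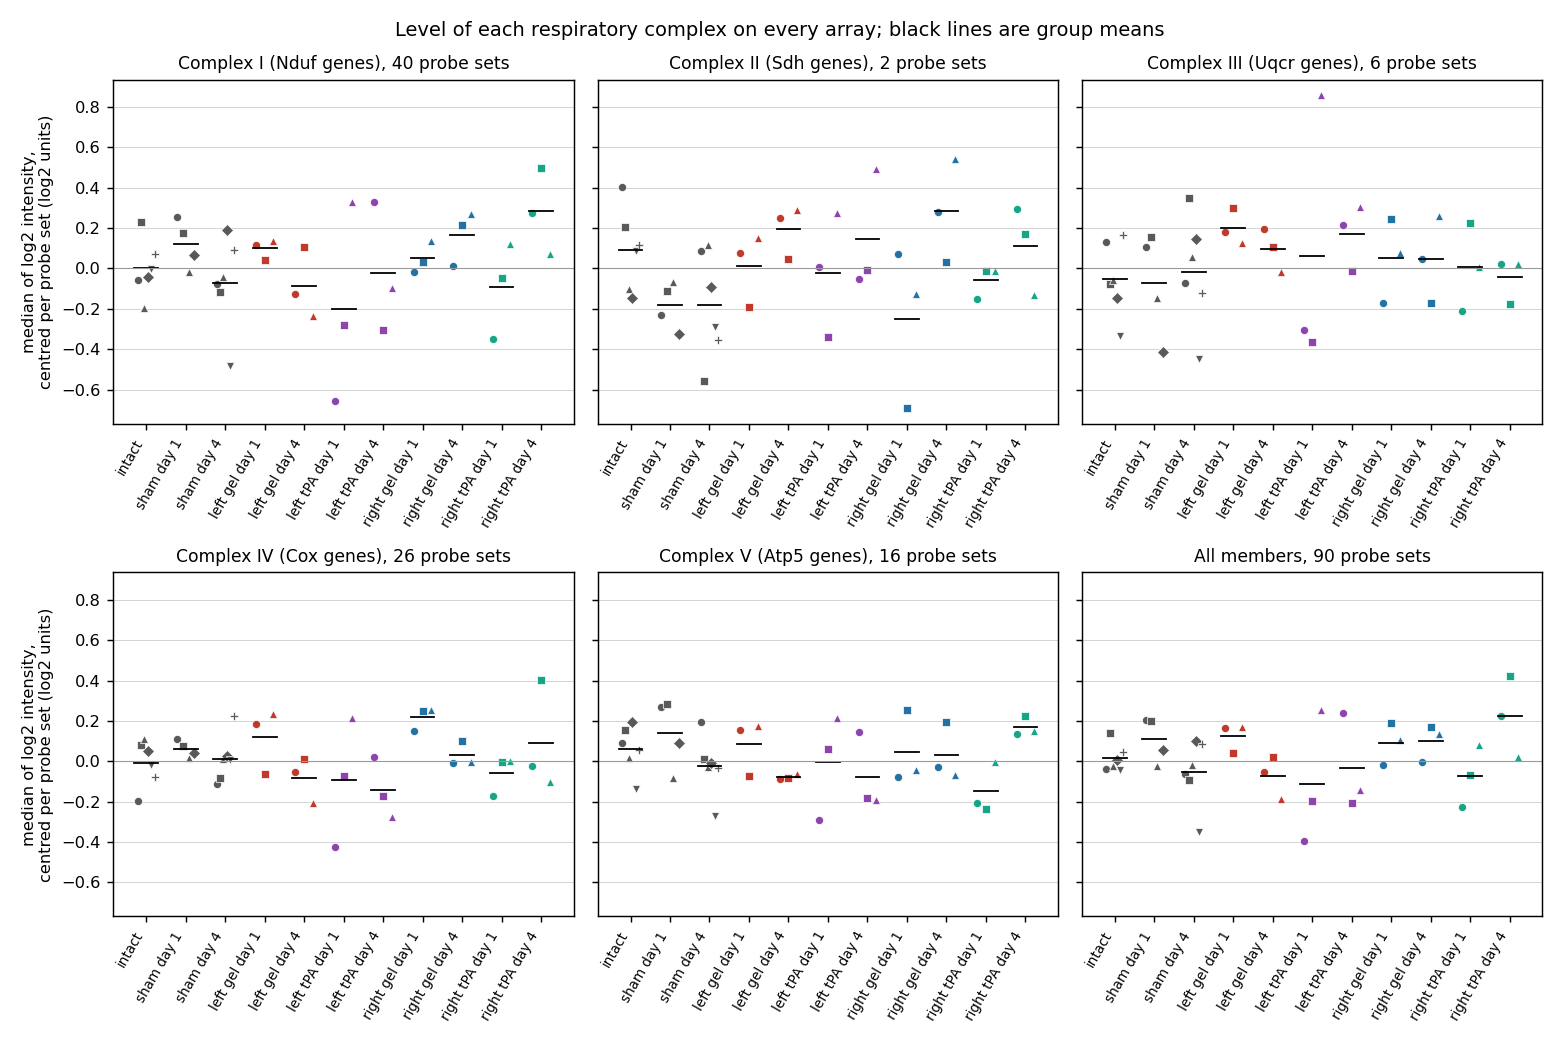
Median centred log2 intensity of the tested probe sets of complexes I to V and of all members, for each array in its group. Points are arrays, with a marker shape per replicate number, and black lines are group means. The group means stay between -0.25 and 0.28, and the arrays of left tPA day 1 (purple) spread most in complexes I and III.

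In limma's F test over the 11 groups, 14 of the 90 members (15.6%, 12 genes) differed, against 26.1% of all probe sets tested. By complex this was 4 of 40 in complex I, 0 of 2 in complex II, 0 of 6 in complex III, 8 of 26 in complex IV and 2 of 16 in complex V. The 8 of complex IV were probe sets of Cox4i2, Cox5a, Cox6a1, Cox6a2, Cox6c, Cox8a (2) and Cox8b. The pairwise comparisons and the differences between days gave 25 calls for 17 probe sets of 13 genes. The share of all probe sets called stands beside each comparison below.

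The muscle forms of 2 subunits differed between left gel and sham arteries at day 1. Cox6a2 and Cox8b are the forms of subunits VIa and VIII found in heart and skeletal muscle, and Cox8b is also abundant in brown fat. On the Cox6a2 probe set rc_AI171644_s_at, left gel day 1 read 933.8, 1771.6 and 950.6, and sham day 1 read 26.0, 21.1, 29.6 and 34.6. All 3 left gel arrays lay far above the 4 sham arrays. The difference was 5.37 ± 1.22 (log2, SE; limma adjusted p = 0.0101). The sham arrays read at or near the floor, so the size of this difference depends on the floor. Sham day 1 was also lower than intact arteries here, by -2.43 to -1.42 (log2) in fits without 1 array, and was not called. The difference between left gel and sham thus also holds low sham arrays.

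The promoters of Cox6a2, Cox8b and Cox8a, the widespread form of subunit VIII, are shown as examples of the short motifs in muscle forms and in a widespread form. Promoters were found in the RefSeq table (build GRCr8) for 47 of the 55 member genes. Each line gives the 250 bases before the start of transcription on the minus strand, 5′ to 3′. Capitals mark matches, on either strand, to the E-box CAGCTG, bound by myogenic factors, to the MEF2-type motif CTANNNNTAG, to TATAAA to the ETS-type motif CCGGAAGT and to the NRF1-type motif.
Cox6a2, chr1:192219717-192219966: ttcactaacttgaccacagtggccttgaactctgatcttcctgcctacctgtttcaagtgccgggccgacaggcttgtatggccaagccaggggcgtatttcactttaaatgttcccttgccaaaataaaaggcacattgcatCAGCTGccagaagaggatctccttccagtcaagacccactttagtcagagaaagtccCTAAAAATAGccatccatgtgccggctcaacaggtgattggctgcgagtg
Cox8b, chr1:205408274-205408523: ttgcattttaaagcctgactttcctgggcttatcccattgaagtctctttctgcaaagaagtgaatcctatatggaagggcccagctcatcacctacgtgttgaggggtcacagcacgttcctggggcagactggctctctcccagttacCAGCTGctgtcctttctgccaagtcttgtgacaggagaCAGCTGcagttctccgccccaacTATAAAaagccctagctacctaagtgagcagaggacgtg
Cox8a, chr1:213833624-213833873: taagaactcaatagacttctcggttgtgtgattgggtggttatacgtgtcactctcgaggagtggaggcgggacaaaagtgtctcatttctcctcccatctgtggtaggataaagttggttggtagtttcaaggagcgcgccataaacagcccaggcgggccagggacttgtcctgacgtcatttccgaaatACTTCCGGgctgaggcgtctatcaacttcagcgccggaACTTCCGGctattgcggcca
Cox6a2 held 1 E-box and 1 MEF2-type match, Cox8b 2 E-boxes and a TATAAA, and Cox8a 2 ETS-type matches, none of which overlapped another. The E-box was present in 12.0% of the 33469 windows of this length and in 8 of the 47 member promoters, the MEF2-type motif in 3.41% and 2, TATAAA in 12.9% and 2, the ETS-type motif in 3.10% and 4, and the NRF1-type motif in 3.75% and 5, with no match in the promoters printed. Besides Cox6a2 and Cox8b, the E-box was in the promoters of Atp5f1e, Atp5po, Cox4i1, Ndufa5, Ndufb10 and Ndufb8. Cox5b was the other member with a MEF2-type match. Neither motif was thus particular to the muscle forms. All of these are matches of letters, not measured binding.

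A second Cox6a2 probe set, X12554cds_s_at, read 911.9, 2273.7 and 1201.7 in left gel day 1 and 263.1, 225.8, 242.0 and 329.3 in sham day 1. The groups did not overlap here either, and the difference was 2.37 ± 0.52 (log2, SE; adjusted p = 0.0080). Its remaining probe set was at the floor on 38 of the 40 arrays and was not tested. Without replicate 2 of left gel day 1 the 2 Cox6a2 probe sets differed by 5.07 and 2.00, with adjusted p of 0.0544 and 0.0679. With the 3 close pairs averaged the first differed by 5.52, with an adjusted p of 0.21.

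Cox8b followed on X64827cds_s_at, with 824.1, 590.2 and 787.3 in left gel day 1 and 46.6, 20.4, 81.9 and 42.4 in sham day 1. The difference was 4.04 ± 1.16 (log2, SE; adjusted p = 0.0470), and it kept its call in 6 of 17 alternatives. The other Cox8b probe set, U40836mRNA_s_at, read 169.1, 257.0 and 192.1 against 43.9, 13.8, 52.3 and 69.0, a difference of 2.21 with an adjusted p of 0.135.

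At day 4 neither gene was called in the injured artery. Cox6a2 rc_AI171644_s_at read 149.0, 165.1 and 45.5 in left gel day 4, within the 64.7 to 255.9 (median 112.2) of sham day 4 but for the lowest array. The test of the change in injury effect between the days gave -5.53 for Cox6a2, which did not pass (limma adjusted p = 0.0675). All sham day 4 arrays lay above the sham day 1 arrays on this probe set, so this change also holds a difference between the sham groups.

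In the remaining groups, high values came from lone arrays. Cox6a2 rc_AI171644_s_at read 153.0, 93.9 and 3517.7 in left tPA day 1, 33.0, 137.8 and 920.7 in right tPA day 1, and 3245.9, 144.1 and 32.4 in right tPA day 4. It read 1005.6, 211.5 and 177.1 in right gel day 4, and in intact arteries it ran from 27.7 to 923.9 with a median of 97.7. Each of these 5 groups thus had 1 array about as high as the left gel day 1 arrays or higher, beside much lower ones. The lower left tPA day 1 arrays still lay above all sham day 1 arrays. Cox8b X64827cds_s_at had the same high arrays in left tPA day 1 (6137.7), right tPA day 4 (5522.2) and right gel day 4 (1200.5).

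Cox8b U40836mRNA_s_at was the member called higher in left tPA day 1 than in sham day 1. It read 106.8, 131.8 and 2354.3 there, all above the 4 sham arrays. The difference was 2.87 ± 0.79 (log2, SE; limma adjusted p = 0.0327), and without left tPA day 1 replicate 3 it was 1.44 with an adjusted p of 0.314. On Cox8b X64827cds_s_at the difference was 3.66, with overlapping groups and an adjusted p of 0.0635.

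Taken as a list, skeletal muscle markers were high on the arrays with high Cox6a2, but single markers did not all follow. Of the 24 markers listed, 17 genes were tested. Their mean centred log2 level was 1.84, 2.74 and 1.92 in left gel day 1 and between -0.92 and -0.51 in sham day 1. Their summed intensity was 27960.4 to 52613.1 in left gel day 1 and 4857.4 to 6455.8 in sham day 1. The level was also 1.90 in left tPA day 1 replicate 3, 2.10 in right tPA day 4 replicate 1, 2.04 in right tPA day 1 replicate 3, 2.03 in right gel day 4 replicate 1 and 1.99 in intact replicate 3, the arrays named for Cox6a2. Tnnc2, the calcium-binding troponin of fast muscle, read 4081.5, 7537.2 and 3977.3 in left gel day 1 and 69.9 to 118.8 in sham day 1. In the comparison of left gel day 1 with sham day 1, 7 of the 17 markers were called higher and 0 lower, with a list median of 2.26. Acta1 and Ckm, skeletal actin and muscle creatine kinase, were listed at 0.0 in left tPA day 1 replicate 3, and at 0.1 and 0.0 in right tPA day 4 replicate 1. On these same arrays Myl2 (X07314cds_at), a myosin light chain of heart and slow muscle, read 5834.7 and 3646.7, against 2.7 to 6.2 in the sham and intact arrays. Its probe set X07314cds_g_at read 2790.1 and 1668.9 there. The Myl2 probe set that entered the list, M11851_at, differed less, with 578.8 and 825.8 against 166.7 to 449.6. In left gel day 1 M11851_at read 229.5 to 269.4, within that range, while X07314cds_at read 229.5 to 839.0. The part of muscle markers in the Cox6a2 and Cox8b values was not tested.

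The brown fat marker Ucp1 was also high on several of the arrays with high Cox8b. It read 941.8 in left tPA day 1 replicate 3, the array that carries the call of Cox8b U40836mRNA_s_at, 2546.4 in right gel day 4 replicate 1 and 765.2 in right tPA day 4 replicate 1, against 71.5 to 94.8 in sham day 1. These 3 arrays had high muscle markers too, while others with high Ucp1 had a low muscle level. Right gel day 1 replicate 1 read 588.9 for Cox8b X64827cds_s_at, 24.9 for Cox6a2 rc_AI171644_s_at and 1026.4 for Ucp1, with a muscle level of -0.61. Left tPA day 1 replicate 2 read 366.9 for Cox8b, 93.9 for Cox6a2 and 2023.4 for Ucp1. In the left gel day 1 arrays Ucp1 was at 79.7, 101.3 and 97.4, within the range of the sham and intact arrays (15.3 to 154.2). The part of brown fat in the Cox8b values was not tested.

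**Figure D2:**
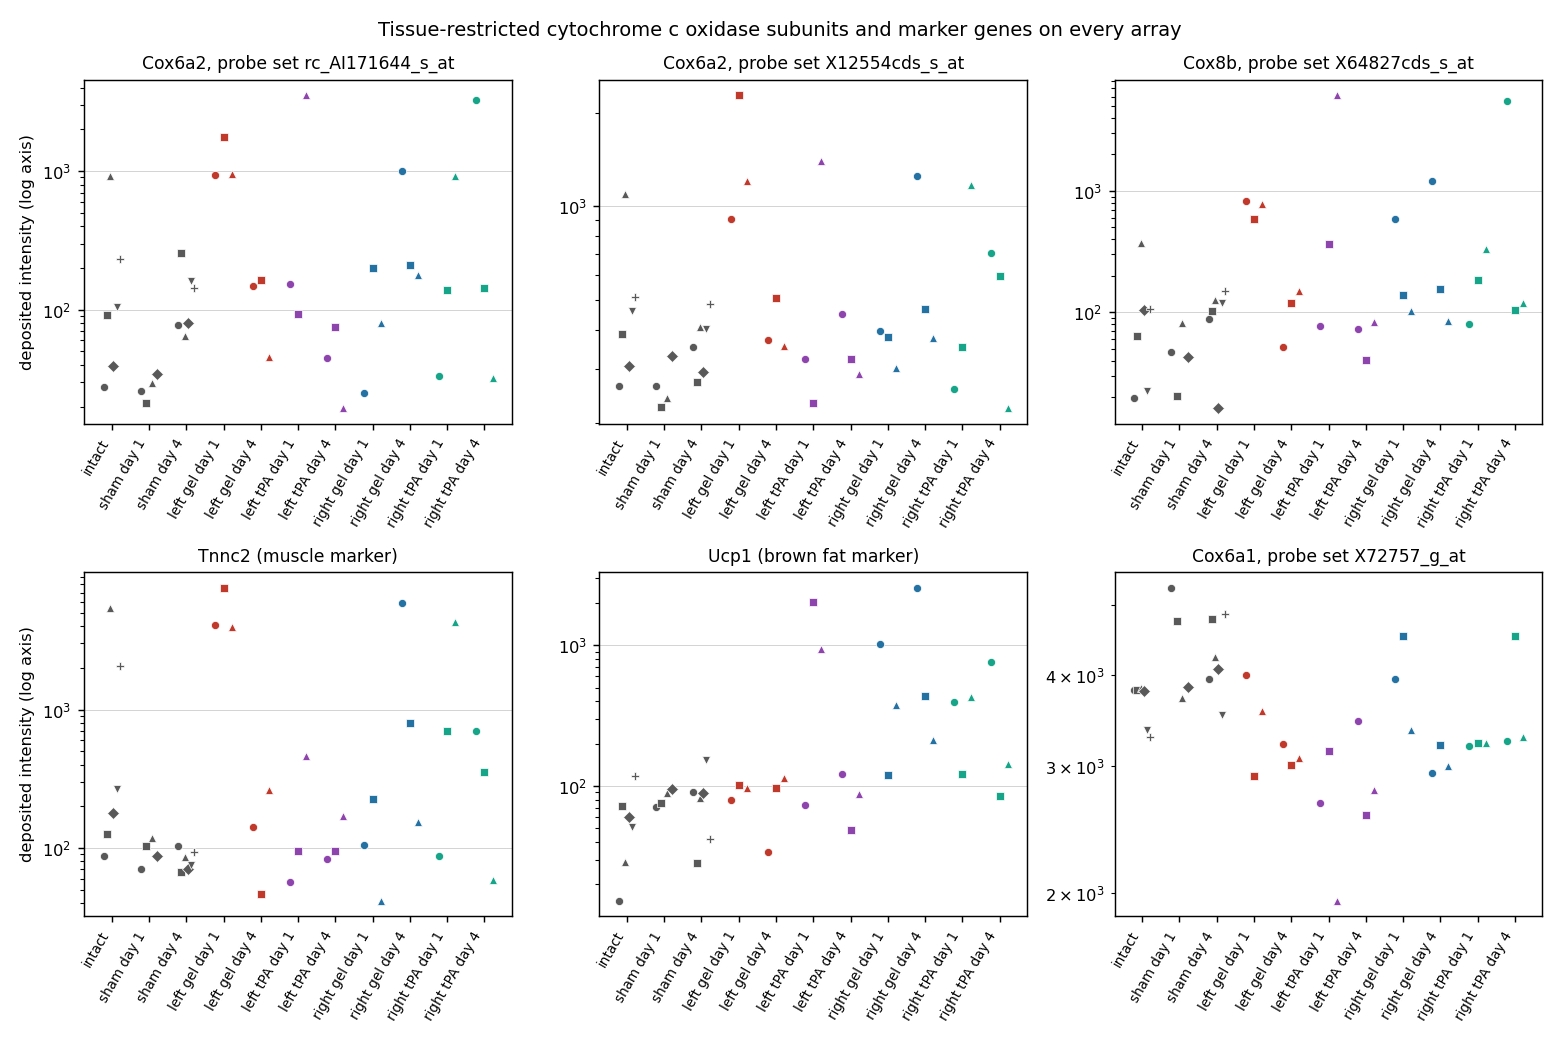
Deposited intensity (log axis) of 2 probe sets of Cox6a2, 1 of Cox8b, the markers Tnnc2 and Ucp1, and the widespread form Cox6a1 on every array, by group. All 3 left gel day 1 arrays are high for Cox6a2, Cox8b and Tnnc2, single arrays are high for Cox6a2 in 5 other groups, and Cox6a1 stays between 1950.7 and 5275.2.

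No widespread form of subunits IV, VIa or VIII was called in left gel day 1. Cox6a1, the widespread form of subunit VIa, fell in left tPA day 1 on X72757_g_at, with 2663.1, 3137.3 and 1950.7 against 5275.2, 4749.8, 3721.4 and 3851.8 in sham day 1. The groups did not overlap, and the difference was -0.78 ± 0.19 (log2, SE; 1.72-fold lower; adjusted p = 0.0151). Without left tPA day 1 replicate 3 it was -0.59 with an adjusted p of 0.136. The other 2 Cox6a1 probe sets gave -0.38 and -0.33 and did not pass. In left gel day 1 the 3 Cox6a1 probe sets gave -0.54, -0.33 and 0.09.

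Cox4i1 and Cox4i2 are the widespread and the lung-enriched form of subunit IV. Cox4i2 passed the F test (adjusted p = 0.0037). It read 553.0, 430.9 and 575.5 in left gel day 1, 532.9, 492.5 and 523.5 in left tPA day 1, and 356.1, 462.8 and 396.8 in right tPA day 1, against 899.4, 871.3, 814.7 and 815.1 in sham day 1. All 9 of these operated arrays lay below the 4 sham arrays, while right gel day 1 (625.2, 1048.8 and 996.1) overlapped them. The pairwise differences of left gel and left tPA from sham day 1, both -0.72, gave limma adjusted p = 0.0815 and 0.0635 and were not called. The 3 Cox4i1 probe sets passed no test, with -0.39 to 0.02 for left gel day 1 against sham.

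Cox5a, a subunit near the catalytic core, stood out through low sham day 1 arrays. It read 66.3, 76.6, 37.2 and 62.3 there, 142.3, 330.2 and 147.2 in left gel day 1, 145.4, 154.1 and 227.1 in right gel day 1, and 88.2 to 251.3 (median 127.3) in intact arteries. Sham day 1 lay below all 3 groups with no overlap. Left gel day 1 was higher by 1.70 ± 0.37 (log2, SE; adjusted p = 0.0074), right gel day 1 by 1.55 ± 0.37 (adjusted p = 0.0264), and sham day 1 minus intact was -1.25 ± 0.31 (adjusted p = 0.0402). These comparisons share the sham day 1 arrays. The replicate numbers of right gel and sham day 1 deviated together, and with the number as a block the right gel difference was 1.58 with an adjusted p of 0.238. Without right gel day 1 replicate 3 it was 1.35, with an adjusted p of 0.173.

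Cox6c M27467_at also read low in sham day 1, with 75.4, 129.6, 53.6 and 83.9 against 178.5, 219.2 and 198.3 in left gel day 1. The difference was 1.28 ± 0.37 (log2, SE; adjusted p = 0.0489). It ran from 1.08 to 1.51 without 1 array, but the call was kept in 5 of 17 alternatives, and quantile normalization (1.16, adjusted p = 0.112) and the averaged close pairs (1.32, adjusted p = 0.391) ended it. Cox6c read 111.2, 156.5 and 99.3 in left gel day 4 and 164.5 to 306.7 (median 202.5) in sham day 4. The injury effect differed between the days by -2.14 ± 0.50 (log2, SE; adjusted p = 0.0130). The other Cox6c probe set, M27466_at, gave 0.06 for left gel day 1 against sham and -0.15 for the difference between days.

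Cox8a, the widespread form of subunit VIII, was low in right gel day 4 on 2 of its 4 probe sets. M28255_s_at read 3698.0, 0.0 and 144.9 there, against 3690.0 to 11104.1 (median 7196.1) in sham day 4, and it read 0.6 in right tPA day 4 replicate 2. On rc_AI102505_g_at right gel day 4 read 3770.5, 1486.2 and 638.8, below all sham day 4 arrays (3969.8 to 5768.3). The low values thus came from replicates 2 and 3, the same arrays on both probe sets.

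The Cox8a differences were -4.90 ± 1.01 (log2, SE; limma adjusted p = 0.0016) and -1.65 ± 0.31 (adjusted p = 0.0006). Replicate 2 lay below the floor on M28255_s_at, so the size of the first difference depends on the floor. The other 2 Cox8a probe sets, rc_AI102505_at and L48209_s_at, gave 0.01 and 0.53 and did not pass, so the probe sets of the gene disagreed. Without replicate 2 the first was -3.24 (adjusted p = 0.0552), and without replicate 3 the second was -1.02 (adjusted p = 0.0501). Right gel day 4 also carried markers of other tissues: 6 of 8 nerve markers were called higher and 1 lower against sham day 4 (summed intensity 9471.8 to 21461.4 against 5262.2 to 7208.9), and 5 of 8 adipocyte markers were called higher (8832.9 to 18018.2 against 4105.1 to 6640.8). Their part in the right gel day 4 results was not tested.

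Among complex I, Ndufs4, an accessory subunit needed for full activity of the complex, was higher at day 4 in the left gel, left tPA and right gel groups than in sham. On rc_AI013297_g_at left gel day 4 read 3745.8, 3752.0 and 2678.3, left tPA day 4 3542.5, 2561.0 and 3177.9, and right gel day 4 2637.1, 3734.7 and 3006.3. Sham day 4 ran from 1099.5 to 2213.7 with a median of 1457.7. All 9 arrays of these 3 groups lay above the 6 sham arrays, as did those of right tPA day 4 (3189.6, 3951.7 and 2918.6), a group that was not compared with sham. The differences were 1.15 ± 0.27, 1.02 ± 0.27 and 1.04 ± 0.27 (log2, SE; about 2-fold each), with limma adjusted p = 0.0023, 0.0238 and 0.0126.

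The Ndufs4 probe set rc_AI013297_at, from the same transcript sequence, read 1758.5, 2091.8 and 1469.4 in left gel day 4 and 468.8 to 1252.3 (median 757.4) in sham day 4. It differed by 1.27 ± 0.31 in left gel (adjusted p = 0.0032), a call kept in all 18 alternatives, by 1.02 in left tPA (adjusted p = 0.0450) and by 0.92 in right gel, which was not called. The left tPA call was lost in 7 of the 9 fits that left out 1 array. All 3 comparisons share the sham day 4 arrays. These read below intact arteries, by -0.49 on rc_AI013297_g_at and -0.58 on rc_AI013297_at, neither of which passed. Intact arteries ran from 1621.3 to 2483.0 on rc_AI013297_g_at, below every array of left gel, left tPA and right gel day 4. Another Ndufs4 probe set was too dim to be tested.

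Macrophage markers moved in these comparisons as well: 7 of 9 were called higher in left gel day 4 against sham (summed intensity 17123.0 to 20763.0 against 2908.9 to 5642.7), 5 of 9 in left tPA and 2 of 9 in right gel. Of the 9 smooth muscle markers 5 were called lower in left gel day 4 and 0 higher. The part of cell makeup in the Ndufs4 values was not tested.

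Ndufab1, the mitochondrial acyl carrier protein, showed higher values in the gel groups at day 4 on AA799336_at, with 1036.2, 1861.4 and 992.1 on the left and 1212.3, 2343.5 and 2177.4 on the right. Sham day 4 ran from 236.2 to 1055.6 with a median of 581.3, and only the left gel group overlapped it. The differences were 1.17 ± 0.39 (adjusted p = 0.0339) and 1.73 ± 0.39 (log2, SE; limma adjusted p = 0.0045). The Ndufab1 probe set rc_AA891651_g_at gave -0.18 and -0.65 and did not pass, so the gene has no settled direction. Ndufb6, an accessory subunit of the membrane arm, was higher in right gel day 4 on rc_AI104528_at, with 1399.4, 2704.3 and 2361.1 against 729.5 to 1409.1 (median 1221.3). The lowest right gel array overlapped sham, and the difference was 0.88 ± 0.25 (log2, SE; adjusted p = 0.0229).

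Ndufb8, another accessory subunit, passed only in the test between days and only on its dim probe set rc_AA999168_at. This read 168.3, 209.1 and 221.0 in left gel day 1 against 51.0, 64.5, 90.1 and 32.2 in sham day 1, and 82.5, 52.1 and 45.7 in left gel day 4 against 82.6 to 302.8 (median 169.1) in sham day 4. The arrays of the injured artery were the higher ones at day 1 and the lower ones at day 4. The injury effects differed by -3.41 ± 0.92 (log2, SE; limma adjusted p = 0.0362), while the other 3 Ndufb8 probe sets, which are brighter, gave -0.12 to -0.28. The probe sets of complex I that passed a test thus belong to 4 of its 26 tested genes. Ndufv3, a small subunit of the NADH-binding arm, showed the largest complex I difference in left gel day 4 against sham on AB000098_at (-1.74, adjusted p = 0.0685), where it read 17.1, 44.9 and 12.5 against 17.3 to 205.4 in sham and did not pass.

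**Figure D3:**
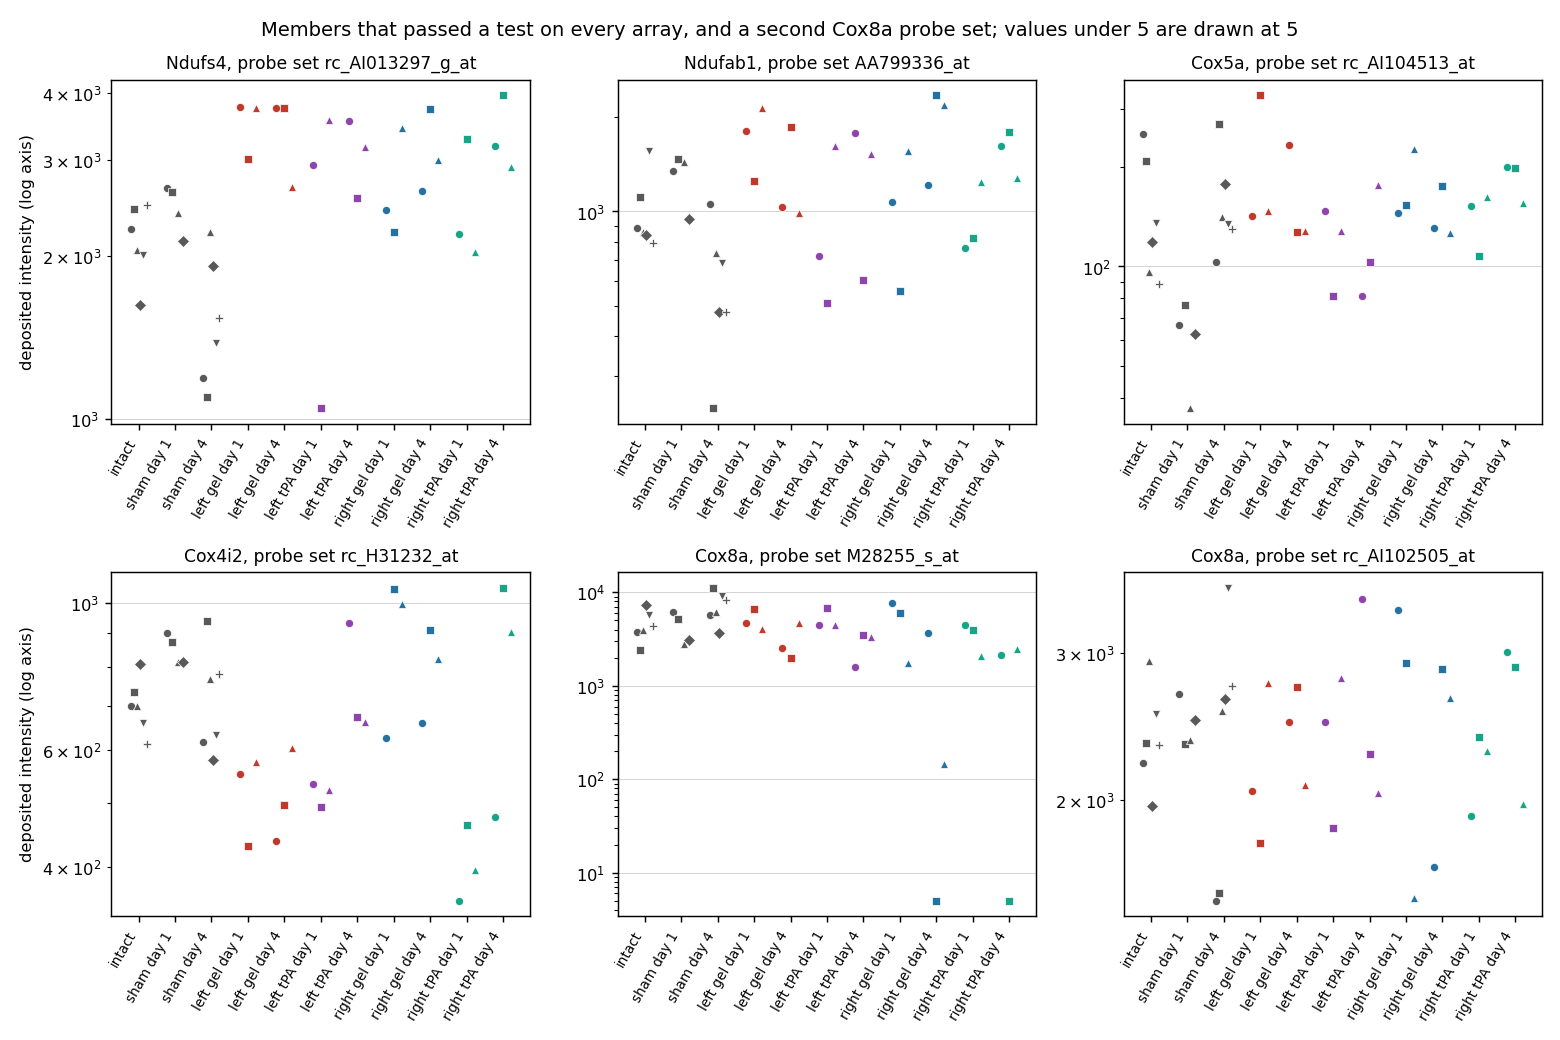
Deposited intensity (log axis) of members that passed a test, by array and group, with a second probe set of Cox8a that did not pass. Values under 5 are drawn at 5. Ndufs4 at day 4 lies higher in left gel, left tPA and right gel than in sham, Cox5a is low in the 4 sham day 1 arrays, and the fall of Cox8a on M28255_s_at comes from 2 right gel day 4 arrays that are not low on rc_AI102505_at.

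Of complexes II and III, 1 probe set was called. Uqcrfs1, the Rieske iron-sulfur protein of complex III, read 4182.6, 5211.1 and 4020.1 in left gel day 4 on M24542cds_g_at and 1121.4 to 3519.2 (median 2828.8) in sham day 4. The groups did not overlap, and the difference was 0.81 ± 0.29 (log2, SE; adjusted p = 0.0484). The call was kept in 8 of 18 alternatives and was lost without sham replicate 2, the array at 1121.4 (0.57, adjusted p = 0.131), and with one median per array (0.71, adjusted p = 0.101). The other 2 Uqcrfs1 probe sets gave 0.63 and 0.53 in the same direction and did not pass. Uqcrc2, a core protein of complex III, read 495.9, 1718.9 and 1127.9 in left tPA day 4 and 582.8, 668.5 and 524.5 in left gel day 4, groups that overlapped (0.74, adjusted p = 0.774). Sdha, the flavoprotein of complex II, ran from 1466.0 to 4615.9 over all arrays and passed no test (F test adjusted p = 0.939).

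In complex V, 1 probe set was called higher in left gel day 4 and another lower in right gel day 4, both against sham. Atp5pd, subunit d of the peripheral stalk, read 4135.9, 4785.2 and 3960.7 in left gel day 4 and 1300.5 to 3407.9 (median 2617.7) in sham day 4, a difference of 0.85 ± 0.28 (log2, SE; limma adjusted p = 0.0302) with no overlap. This call was lost in 6 of the 9 fits that left out 1 array. Atp5po, the subunit that joins the stalk to the catalytic head, read 3759.1, 4063.7 and 3386.6 in right gel day 4 on D13127_g_at, below all 6 sham day 4 arrays (5074.2 to 9712.8, median 7338.6). Its difference was -1.01 ± 0.28 (log2, SE; adjusted p = 0.0215), and its other probe set gave -0.54. Atp5f1a, the alpha subunit of the head, passed the F test (adjusted p = 0.0496). It read 2337.0, 2273.8 and 3054.7 in left gel day 4 and 3400.2 to 4813.6 (median 4179.7) in intact arteries, groups that did not overlap and were not compared directly.

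Set side by side, the comparisons with sham called few members. For left gel day 1, 5 of 90 members were called higher and 0 lower (5.56%, against 3.12% of all probe sets tested, of which 1.66% were higher), all 5 in complex IV. For left gel day 4 it was 5 higher and 0 lower (5.56%, against 19.2%, of which 11.3% were higher). None of the 26 probe sets of complex IV was called there, and 5 of them had an unadjusted p under 0.05 in limma (19.2%, against 30.2% of all probe sets). The direction of the members' calls rests on the arrays and the fit: without sham day 4 replicate 5 it was 3 higher and 5 lower, and with quantile normalization 4 higher and 4 lower. For left tPA day 1, 1 was higher and 1 lower (2.22%, against 4.43%, made of 1.61% higher and 2.81% lower), and for left tPA day 4, 2 were higher and 0 lower (2.22%, against 5.87%, with 3.95% higher). On the uninjured right side, 1 was higher and 0 lower at day 1 with gel (1.11%, against 0.927%, with 0.532% higher). At day 4 with gel, 3 were higher and 3 lower (6.67%, against 8.82%, made of 6.23% higher and 2.59% lower). Comparisons of a day share its sham arrays.

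The median member difference was -0.03 in left gel at both days and 0.03 in left tPA day 4, against -0.01, 0.02 and 0.06 for all probe sets. In left tPA day 1 it was -0.25 against 0.14, with 62 of 90 members below 0. Per complex the medians there were -0.33 (I), 0.16 (II), 0.06 (III), -0.15 (IV) and -0.29 (V). Scaling each array to one median shifted all values of this comparison by -0.29 and gave a member median of -0.54, and leaving out 1 array at a time gave -0.40 to -0.076. In right gel day 4 the median was 0.18 against -0.04.

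Between tPA and plain gel in the injured artery, limma called 0 of 90 members at either day (background 0.12% in both), with 12 members at an unadjusted p under 0.05 at day 1 (13.3%, the same share as over all probe sets, 13.3%) and 1 at day 4 (1.11%, against 7.77%). The median difference was -0.24 at day 1 (0.13 for all probe sets) and 0.00 at day 4 (0.00). The tPA effect did not pass for any member in the test between days (background 0.0858%), where 6 had an unadjusted p under 0.05 (6.67%, against 12.5% of all). Between the injured left and the uninjured right artery, 0 members were called at day 1 (background 0.549%; 7 at an unadjusted p under 0.05, or 7.78% against 16.3% of all) and 1 at day 4 (1.11%, against 5.10%, with 1.63% higher), Cox8a rc_AI102505_g_at, which was higher on the left by 1.27. Sham against intact called 1 member at day 1, Cox5a (1.11%, against 0.944%, with 0.549% lower), and 0 at day 4 (background 0.378%; 7 at an unadjusted p under 0.05, or 7.78% against 10.1% of all). The injury effect differed between days for Cox6c and Ndufb8, both lower at day 4 (2.22%, against 2.42%, with 0.789% lower).

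**Figure D4:**
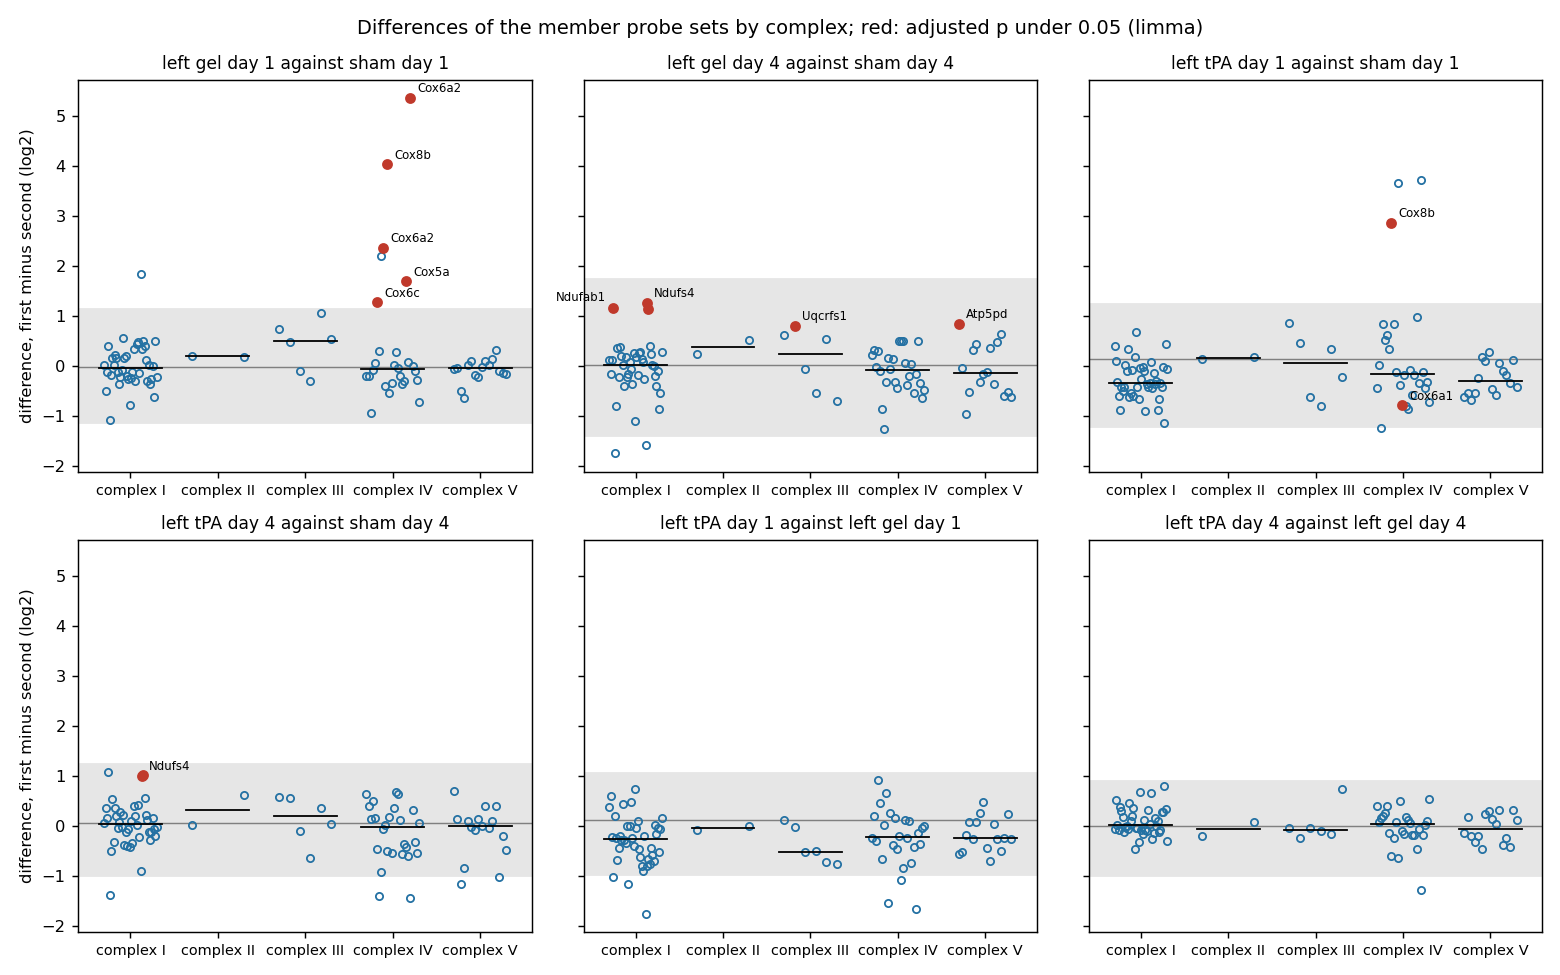
Difference (log2, first group minus second) of each tested member probe set by complex in 6 comparisons. Red points have a limma adjusted p under 0.05, black bars are complex medians, the grey line is the median and the grey band the 5th to 95th percentile of all 5827 probe sets. Most members lie inside the band, and the red points above it in left gel and left tPA day 1 are subunits of complex IV.

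With the 4 tPA arrays named above left out, calls became more frequent among the members and among all probe sets. Leaving out arrays picked as lying apart can itself lower the shared spread, so these calls are no separate evidence. Against sham, 9 of 90 members were called (against 7.38% of all probe sets) for left gel day 1, 10 (5 higher and 5 lower; 11.1%, against 11.7%) for left tPA day 1 and 7 (2 higher and 5 lower; 7.78%, against 18.1%) for left tPA day 4. For left tPA against left gel at day 1 it was 1 (1.11%, against 1.97%). Cox6a2 rc_AI171644_s_at and Cox8b X64827cds_s_at were then called higher in left tPA day 1, by 4.71 (adjusted p = 0.0091) and 3.97 (adjusted p = 0.0243). Left tPA day 1 then held 2 arrays, 1 of them the lone array given above as high for both genes. The other read far below it for Cox6a2, though above all sham day 1 arrays. The member lower in tPA than in gel was Ndufb8 rc_AA999168_at, by -2.57 (adjusted p = 0.0178).

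Several probe sets of 1 gene often differed in sign. Among the 26 genes with more than 1 tested probe set, 11 had probe sets of opposite sign in left gel day 1 against sham and 14 in left gel day 4, and the number lay between 7 and 15 over the 14 comparisons. For many members the direction is therefore that of a probe set and not of the gene.

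Other genes of energy metabolism were listed by pathway, and their calls are to be read against the shares of all probe sets given above, 19.2% in left gel day 4 against sham. Of 9 tested genes of the tricarboxylic acid cycle, Dlat rose (1.17) and Idh2 fell (-0.75) in left gel day 4 against sham, and no other comparison called one. Of 16 genes of fatty acid oxidation, Etfa rose (1.04) and Hadha fell (-0.66) in left gel day 4, and Slc25a20, the carnitine carrier, rose in left tPA day 1 (1.30). Among 9 carriers and related proteins, Ucp2 rose in left gel day 4 (1.33), and Tspo fell there (-0.74), in left tPA day 4 (-0.86) and in right gel day 4 (-0.87), where Slc25a3, the phosphate carrier that serves ATP synthase, fell too (-0.88). None of the 4 tested regulators of mitochondrial genes was called in any of the 14 comparisons. Of 13 glycolytic genes, Pfkm, the muscle form of phosphofructokinase, fell in left gel day 4 (-1.70), and Aldoa rose in left tPA day 1 (2.70). The list medians in left gel day 4 were 0.25, 0.03, -0.22, -0.08 and -0.22 in the order given.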

How the data were processed

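RNA was hybridised to Affymetrix Rat Genome U34 arrays. The authors deposited linear intensities, 1 for every probe set on every array. How probes were summarised is not given in the sources used here. On every array the mean without the lowest and highest 2% lay between 500.3 and 500.8, so each deposited intensity is relative to its own array. Of 8799 probe sets 59 were controls. Of the rest, 7006 had 1 symbol in the platform annotation, 308 several and 1426 none. A floor at the 20th percentile (23.3) was set before log2, so folds of dim probe sets are understated. By mean log2 the lowest 2913 were dropped, leaving 5827 (3546 genes). They entered 1 limma model (version 3.58.1, lmFit and eBayes, R 4.3.3) of 11 group means over all 40 arrays, with Benjamini-Hochberg adjustment over all 5827 at 0.05. The procedure was tested on simulated data.

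The members, the marker and pathway lists, the comparisons and the alternatives were chosen with earlier results of these data known. Named members are those that passed a test, the 3 largest differences of a comparison where they add to the account, and paired forms of cytochrome c oxidase subunits. Others were named to account for their complex. From the pathway lists, all genes called against sham in an injured artery were named, and some others. The number of arrays limits the precision. Replicate numbers deviated together in 1 of 12 comparisons, right gel against sham at day 1, and were not taken to pair the others. Averaging the 3 close pairs of arrays was an alternative added after seeing the data.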

Additional observations from a re-analysis of the deposited data

Results flagged for a closer look

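Only sham day 1, sham day 4 and intact arteries had enough arrays to be tested for a lone far array. The gel and tPA groups of 3 arrays were not tested. Among 75 sets of values tested, 2 lone arrays were found, where chance gives about 1 in 20. Uqcrfs1 M24542cds_g_at read 1121.4 in sham day 4 replicate 2 (10.13 on the log2 scale), while the other 5 arrays read 2511.5 to 3519.2. Cox8b X64827cds_s_at read 16.2 in sham day 4 replicate 4 (4.54 after the floor), while the others read 87.7 to 149.6. The injury effect at day 4 differed from that at day 1 by -2.14 for Cox6c M27467_at and by -3.41 for Ndufb8 rc_AA999168_at, in the limma test of the difference itself (adjusted p = 0.0130 and 0.0362).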

How the results depend on the processing

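Only the 57 member differences that were called or among the 3 largest of a comparison were refitted, a choice that favours a stable direction. None of them changed direction. Of 1029 refits 844 kept their side of the threshold, 159 lost the call and 26 gained one. Those that kept their side include uncalled differences that stayed uncalled. Of the 25 calls, 1 was kept in every alternative, Ndufs4 rc_AI013297_at in left gel day 4, and 13 were lost in more than 5 alternatives. The cause of the changes below was not tested. Counts are of called members. For the 14 that differed across groups, genes as means of their probe sets gave 8, the close pairs averaged 4, and leaving out 1 array at a time 8 to 16. Left gel against sham at day 1 (5) gave 3 with quantile normalization, 3 without the filter, 3 with the floor at the 40th percentile, 9 without the 4 tPA arrays, 2 for genes, 0 with close pairs averaged and 0 to 4 without 1 array (0 without left gel replicate 2, 3 without most others). At day 4 (5) it gave 8 (4 higher, 4 lower) with quantile, 3 with one median per array, 3 for genes, 3 (1 higher, 2 lower) with the replicate block and 2 to 8 without 1 array (2 without left gel replicate 1 or 2 or sham replicate 2, 8, of which 3 higher and 5 lower, without sham replicate 5). Left tPA against sham at day 1 (2) gave 1 with quantile, no filter, the lowest 50% left out, the higher floor or genes, 6 with one median, 10 without the 4 tPA arrays, 0 with close pairs, only the groups compared or the replicate block, and 0 to 6 without 1 array (6 without left tPA replicate 2, 0 without replicate 3). At day 4 (2) it gave 1 with quantile, 0 with one median, only the groups compared or the replicate block, 7 without the 4 tPA arrays and 0 to 5 without 1 array (5 without left tPA replicate 1, 0 without 2 or 3). Left tPA against left gel at day 1 (0) gave 1 without the 4 tPA arrays and 0 to 0 without 1 array.

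Left against right gel at day 1 (0) gave 1 with one median, 3 without the 4 tPA arrays, 1 with the replicate block and 0 to 0 without 1 array. At day 4 (1) it gave 2 with quantile, no filter, only the groups compared or without the 4 tPA arrays, 3 with the higher floor, 0 with one median, genes or the replicate block, and 0 to 2 without 1 array. Right gel against sham at day 1 (1) gave 0 with quantile, one median, the higher floor, close pairs, only the groups compared, the replicate block or without right gel replicate 3, 2 without the 4 tPA arrays and 0 to 1 without 1 array. At day 4 (6) it gave 3 for genes, 0 with the replicate block and 2 to 8 without 1 array (2 without right gel replicate 2 or 3). Sham against intact at day 1 (1) gave 0 with quantile, one median, no filter, the higher floor, close pairs, only the groups compared or the replicate block, 2 without the 4 tPA arrays and 0 to 1 without 1 array. The injury effect between days (2) gave 1 with one median, no filter or the lowest 50% left out, 4 without the 4 tPA arrays, 0 for genes or with close pairs, 6 with only the groups compared, 7 with the replicate block and 0 to 2 without 1 array (0 without left gel day 1 replicate 2). The tPA effect between days (0) gave 1 without the 4 tPA arrays.

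With one median per array the median member difference was -0.54 for left tPA against sham and -0.46 against left gel at day 1, 0.28 for left against right gel and -0.29 for right gel against sham at day 1, and 0.54 for the tPA effect between days. Without the 4 tPA arrays it was -0.13 for left tPA against sham at day 4. Leaving out 1 array gave medians of -0.40 to -0.076 and -0.39 to -0.059 for the first pair, -0.13 to 0.13 for left tPA against sham at day 4, and 0.10 to 0.44 for the tPA effect between days.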
